A study of Drosophila melanogaster with 2 samples.

Results

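Small nucleolar RNA (snoRNA) genes and the genes that carry them were examined in a ChIP-seq map of CG1792, a C2H2 zinc finger protein with a zinc-finger associated domain. All genes annotated with the biotype snoRNA on chromosomes X, 2, 3 and 4 were taken, which gave 269 of the 18164 annotated genes other than transposable elements. A host was any gene of another biotype that spans a whole snoRNA gene on the same strand, and there were 95 hosts. The material was whole Drosophila melanogaster embryos of 0 to 24 hours, with males and females pooled, from 1 transgenic line that stably expresses CG1792 with GFP at its C-terminus. All of it falls in 1 group of 2 libraries, labelled biological replicates 2 and 3. The authors called peaks against a control alignment, which was not analysed here, and there was no other condition, so nothing below contrasts conditions. Per the descriptions the precipitation used an antibody to GFP, whereas the antibody field names CG1792. Whole embryos mix all cell types, so a region bound in few cells and one bound weakly in many cannot be told apart.

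SnoRNAs are short stable RNAs of the nucleolus that guide chemical changes of ribosomal RNA by base pairing. Box C/D snoRNAs, named for their C and D boxes, guide 2′-O-methylation by fibrillarin, and box H/ACA snoRNAs guide pseudouridylation by dyskerin. A few, such as U3, take part in cleavage of the ribosomal RNA precursor, and related RNAs of the Cajal body (scaRNAs) guide changes of spliceosomal RNAs. In flies most snoRNAs lie in introns of a host gene, are transcribed from the host's promoter and are released from the spliced intron. Many hosts encode ribosomal proteins or other parts of the translation machinery, and others, the Uhg genes, are noncoding RNAs whose introns carry the snoRNAs.

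The printed sequences show 3 snoRNAs and the promoters they share with their hosts, because at these loci 1 summit, the position of highest signal in a peak, marked both the snoRNA start and the host start. The snoRNA sequences run 5′ to 3′ on their own strand, from the RefSeq copy of Release 6 of the genome (dm6), with T for U and with capitals for the C box (TGATGA) and D box (CTGA), or for the ACA box. Or-CD11a lies at chr3L:3222475-3222541 on the minus strand in RpL28, Me28S-A774b at chr3L:13023580-13023652 on the plus strand in RpS12, and Psi18S-1275 at chr3R:9778398-9778537 on the plus strand in RpS29.
snoRNA:Or-CD11a: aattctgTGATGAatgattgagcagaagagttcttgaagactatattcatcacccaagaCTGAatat
snoRNA:Me28S-A774b: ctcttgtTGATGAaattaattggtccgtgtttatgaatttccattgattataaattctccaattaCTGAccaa
snoRNA:Psi18S-1275: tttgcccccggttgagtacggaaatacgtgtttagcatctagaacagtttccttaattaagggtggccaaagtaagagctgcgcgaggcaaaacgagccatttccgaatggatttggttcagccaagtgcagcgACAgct

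The windows around the host summits are printed on the host's strand from the same genome, with capitals for the DNA replication-related element (DRE) TATCGATA, the site known for the factor DREF. RpL28 is shown at chr3L:3222957-3223057 on the minus strand, RpS12 at chr3L:13023274-13023374 on the plus strand and RpS29 at chr3R:9777989-9778066 on the plus strand. RpL14, at chr3L:8600915-8601015 on the plus strand, and RpL23A, at chr3L:1668694-1668794 on the minus strand, had the strongest peaks of all hosts and are shown for that reason. Their windows hold neither the DRE nor the shorter CGATA.
RpL28: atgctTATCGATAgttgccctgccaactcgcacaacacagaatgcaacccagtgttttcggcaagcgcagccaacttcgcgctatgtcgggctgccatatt
RpS12: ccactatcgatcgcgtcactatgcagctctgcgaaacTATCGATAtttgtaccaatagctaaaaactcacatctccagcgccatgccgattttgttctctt
RpS29: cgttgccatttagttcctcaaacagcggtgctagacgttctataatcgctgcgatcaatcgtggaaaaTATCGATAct
RpL14: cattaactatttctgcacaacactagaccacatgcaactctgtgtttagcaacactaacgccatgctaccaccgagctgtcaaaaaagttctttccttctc
RpL23A: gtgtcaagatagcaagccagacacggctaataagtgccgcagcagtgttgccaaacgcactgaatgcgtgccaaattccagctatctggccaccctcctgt

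The snoRNA genes were short and almost always nested. Their length ran from 46 to 316 bp with a median of 134 bp. By their symbols 117 were box C/D, with a median length of 80 bp, 120 were box H/ACA, with a median of 140 bp, and 32 had other names; 16 of all symbols were scaRNAs. Of the 269 genes, 247 (91.8%, Wilson 95% interval 87.9 to 94.5%) lay inside a host, 12 of them inside 2 hosts, and 20 of the 247 overlapped a host exon. Of the 22 without a host, 10 lay inside a gene on the other strand. Of the snoRNA genes, 75 shared a run of 30 bases with another and 4 were identical to another in full, so reads from such copies may have been placed at either; the sources used here do not give how the authors treated them.

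The first question was whether peaks sat at the snoRNA genes themselves. Of the 269 snoRNA genes 7 (2.6%, 1.27 to 5.27%) had a summit of the thresholded list within 500 bp of their own start, against 11.8% of all 18164 genes and 4.39% of the 3261 ncRNA genes. The count depended on the window, with 1 gene (0.372%) at 250 bp and 37 genes (13.8%) at 1000 bp. The thresholded list is the authors' final set of 2892 peaks, kept by a measure of how well peaks repeat between replicates. No thresholded summit fell inside a snoRNA gene, 0 of 269, which allows a share of up to 1.12% when 3 counts are taken as the limit of a count of 0. The genes are short, with a median of 134 bp, and the share expected for stretches of that length was not computed. The 0 therefore does not show that peaks avoid snoRNA genes. In the pooled list, 30000 regions that include background, 100 snoRNA genes (37.2%, 31.6 to 43.1%) had a summit at their own start, against 48% of all genes and 30.6% of ncRNA genes. The single lists gave 90 (33.5%) in replicate 2, against 44.9% of all genes, and 96 (35.7%) in replicate 3, against 48.7%, and 53 snoRNA genes (19.7%) were marked in both. In the thresholded and pooled lists the interval for snoRNA starts lay below the share of all genes. Against ncRNA genes, the thresholded interval held their share and the pooled interval lay just above it. Neighbouring snoRNA genes can share a summit: the 100 with a pooled summit shared 74 distinct ones. These intervals treat the genes as independent and may be too narrow. No test was run.

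**Figure D1:**
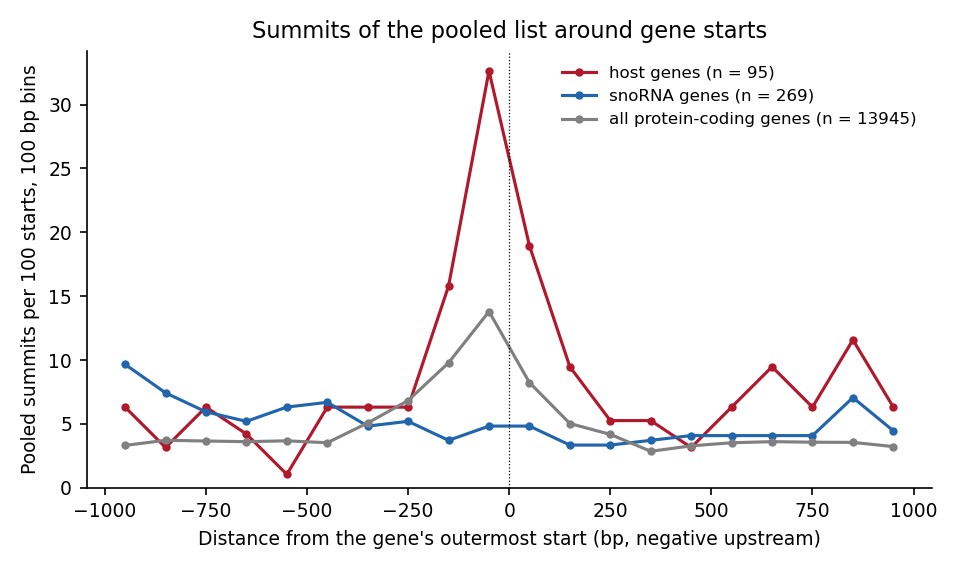
Summits of the pooled list per 100 gene starts, in bins of 100 bp from 1000 bp upstream to 1000 bp downstream of the outermost start, for the 95 hosts (red), the 269 snoRNA genes (blue) and all 13945 protein-coding genes (grey). The host curve reaches 32.6 in the bin just upstream of the start and the protein-coding curve 13.8, while the snoRNA curve stands at 4.83 in the bins on both sides of the start.

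The pattern of summits around the starts separated the snoRNA genes from their hosts. In the 100 bp just upstream there were 4.83 pooled summits per 100 snoRNA genes, against 32.6 per 100 hosts and 13.8 per 100 protein-coding genes. The snoRNA curve had no maximum at the start: its highest bin, 9.67 per 100, lay 1000 to 900 bp upstream. Of the snoRNA genes, 157 had no start of a gene other than a snoRNA within 1000 bp. For these 157 that bin held 5.73 per 100, and all bins ran from 2.55 to 6.37. Pooled regions at snoRNA starts were of about the median strength of the pooled list, which includes background. Signal is the authors' own strength value for each region, on a scale they do not state, and is used here only within 1 list. The 100 snoRNA starts with a pooled summit had a median signal of 26.3, against 26.7 over all 30000 pooled regions. The 100 genes shared 74 distinct summits. For 30 of the 100 the summit also lay at a host start, for 65 at no start of a gene other than a snoRNA, and for 58 it lay upstream.

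Distance to another gene's start went with part of these counts. Of the 112 snoRNA genes with a start of a gene other than a snoRNA within 1000 bp, 52 (46.4%, 37.5 to 55.6%) had a pooled summit and 4 a thresholded one. Of the 157 farther from any such start, 48 (30.6%, 23.9 to 38.2%) had a pooled summit and 3 (1.91%, 0.652 to 5.47%) a thresholded one. The replicates differed in this: replicate 2 alone marked 34.8% of the near genes and 32.5% of the farther ones. Replicate 3 alone marked 42.9% and 30.6%. The 22 snoRNA genes without a host had a pooled summit in 14 cases (63.6%, 43 to 80.3%) and the 247 nested ones in 86 (34.8%, 29.2 to 41%). By name, 49 of 117 box C/D genes (41.9%) and 35 of 120 box H/ACA genes (29.2%) had a pooled summit at their own start.

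U3, which acts in early cleavage of the ribosomal RNA precursor and is transcribed from promoters of its own, has 3 genes, none with a thresholded summit. U3:9B had a pooled signal of 35.6 (rank 8571), with the summit 85 bp past the start. U3:54Ab had 28.2 (rank 13448), and U3:54Aa had no region in any of the lists. Ranks count from 1 for the strongest region of a list.

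Of the 7 snoRNA genes with a thresholded summit, 4 had a summit that also lay at their host's start. Psi18S-1275, a box H/ACA snoRNA named for a pseudouridine of 18S ribosomal RNA, had the strongest, with a pooled signal of 167 at rank 545, 359 bp upstream of the snoRNA start and 3 bp upstream of a start of RpS29; it ranked 724 in replicate 2 and 498 in replicate 3. Or-CD11a, an orphan box C/D RNA with no known target in its name, had 165 at rank 560, 466 bp upstream of its start and 47 bp upstream of RpL28, with ranks of 453 in replicate 2 and 706 in replicate 3. Psi28S-2949, at chr2R:9095372-9095526 in Uhg4, had 164 at rank 568, 190 bp upstream of its start and 91 bp upstream of Uhg4. Me28S-A774b, named for a methylated adenosine of 28S ribosomal RNA, had 116 at rank 1102, 256 bp upstream, with ranks of 2158 in replicate 2 and 626 in replicate 3. This summit lay 28 bp upstream of the RpS12 start.

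The other 3 had a summit at no annotated start of another gene. Or-CD13, at chr2R:10082253-10082322 on the minus strand, has no host on its strand and lies within egr, which encodes the TNF ligand Eiger, on the other strand. Its summit lay 458 bp past its start in an intron of egr, with a signal of 149.7 at rank 683, and ranked 909 in replicate 2 and 625 in replicate 3. Or-CD4, inside Uhg5, had a signal of 109.8 at rank 1241, and the summit lay 379 bp past its start and 134 bp beyond the end of Uhg5. It ranked 1101 in replicate 2 and 1412 in replicate 3. The snoRNA abba-a had 67.2 at rank 2871, 386 bp upstream of its start in an intron of tn, 3273 bp from the nearest tn start. Of the 7, abba-a was the weakest, at ranks 3314 in replicate 2 and 3148 in replicate 3. The nearest snoRNA gene inside the 500 bp limit was Or-CD11a at 466 bp and the nearest outside was Or-aca5 in Uhg4, whose summit lay 503 bp upstream, followed by U49:66Da in RpL14 at 508 bp.

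The strongest pooled regions at other snoRNA starts ran from 65.8, just under the lowest thresholded signal of 66.97, down to 50.8. Psi18S-920 in RpL10Ab had 65.8 (rank 2998) and Me18S-C1096 in RpL3 had 64.3 (rank 3128), and both summits also lay at the start of the ribosomal protein host. Psi18S-301, which has no host, had 61.4 (rank 3389) with the summit 79 bp inside the gene, away from the start of any gene other than a snoRNA; it ranked 3604 in replicate 2 and 4579 in replicate 3. Psi18S-525a in Arpc2 had 57.99 (rank 3708), also at no such start, and snoRNA:291 in Prp39, a splicing factor gene, had 50.8 (rank 4617) at the host start.

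The second question was whether peaks sat at the starts of the hosts. A host is called bound where a thresholded summit lay within 500 bp of any annotated transcript start. Of the 95 hosts 43 were bound (45.3%, 35.6 to 55.3%), against 14.2% of all 13945 protein-coding genes. In the pooled list 85 hosts (89.5%) were marked, against 53.2% of protein-coding genes. Replicate 2 alone marked 82 (86.3%), against 49.6%, and replicate 3 alone 80 (84.2%), against 54%. The share of hosts was higher than the background in every list, and the interval of the bound share lay above 14.2%. All 43 bound hosts carried the summit at a start of a transcript that spans a snoRNA. For most of them this was fixed, since every annotated start begins such a transcript. Among bound hosts only kis, Msp300, lola, eEF1alpha1, hts and drn also have a start that does not. Counting only the outermost start of each gene left 37 bound hosts (38.9%, 29.8 to 49%), against 12.7% of protein-coding genes.

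Ribosomal protein hosts, which build the subunits that snoRNAs help to modify, had the largest bound share of the 4 host classes. Of these 29 hosts 20 were bound (69%, 50.8 to 82.7%), 11 of 16 for the large subunit and 9 of 13 for the small subunit. Ribosomal protein genes that host no snoRNA were bound in 34 of 57 cases (59.6%, 46.7 to 71.4%). The intervals of the 2 sets overlap, and their difference was not tested. Of the other 55 protein-coding hosts 21 were bound (38.2%, 26.5 to 51.4%), above the 14.2% of all protein-coding genes, and at the outermost start alone 15 (27.3%, 17.3 to 40.2%), above 12.7%. Of the 7 Uhg genes 2 were bound (28.6%, 8.22 to 64.1%), against 4.39% of ncRNA genes, and all 7 had a pooled region, against 30.6%. The other 4 noncoding hosts gave 0 of 4, which by the same 3 counts allows up to 75%.

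**Figure D2:**
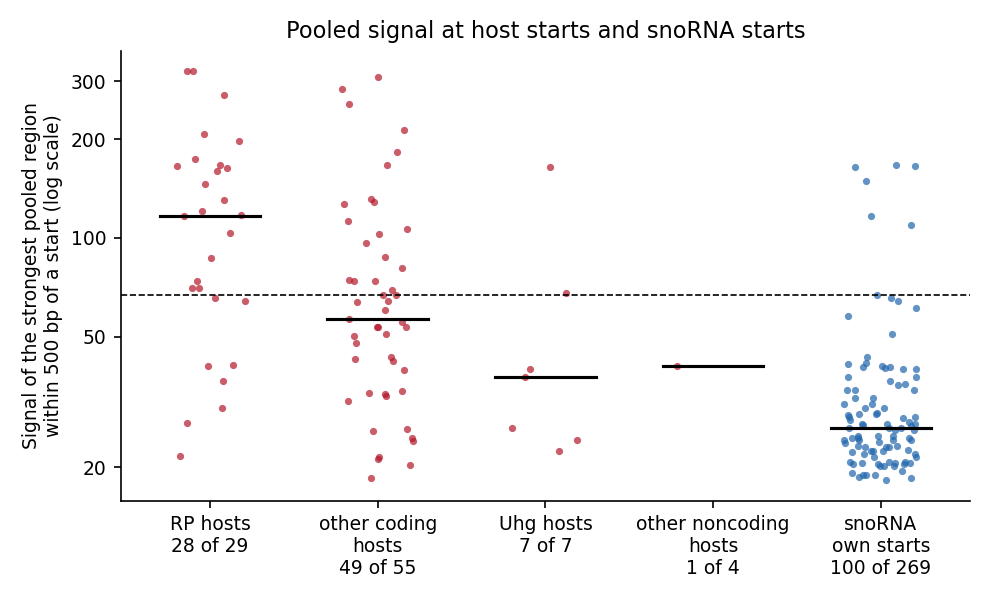
Pooled signal, on a log axis, of the strongest region within 500 bp of a start, 1 point per host or snoRNA gene that had one, with the number of genes with a point under each class; black bars are medians and the dashed line is the lowest thresholded signal, 66.97. Ribosomal protein (RP) hosts lie mostly above the line and snoRNA own starts mostly below it, where 93 of the 100 stand.

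Among hosts and snoRNA genes, median rank followed the order of the bound shares of ribosomal protein hosts, other coding hosts, Uhg genes and snoRNA starts, but the Uhg genes ranked below protein-coding genes although their bound share was higher. The strongest pooled region ranked at a median of 1089.5 for the 28 ribosomal protein hosts that had one, 3848 for 49 other coding hosts, 7757 for the 7 Uhg genes and 15368.5 for 100 snoRNA starts, against 6490 for the 7414 protein-coding genes with one. Among bound genes only, the median thresholded signal was 127 for hosts, 153 for ribosomal protein hosts and 106 for other coding hosts, against 104.7 for all bound protein-coding genes and 108 for bound ribosomal protein genes that are not hosts.

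The strongest summit at any host lay at RpL14, a large subunit protein gene with 2 snoRNAs. It had a pooled signal of 322.4 at rank 129, a signal of 147.1 at rank 137 in replicate 2 and 176.5 at rank 128 in replicate 3, and lay 41 bp upstream of RpL14 and within 500 bp of a start of Nelf-E, the RNA-binding subunit of an elongation factor complex. RpL23A, with 4 box C/D snoRNAs, had 322.1 at rank 130, and ranks of 125 in replicate 2 and 148 in replicate 3. Both loci thus stood within the strongest 150 regions of each replicate. The 4 snoRNAs of RpL23A also lie in Uhg7, which was not bound and had a pooled signal of 24.3 at rank 17828.

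RpS20 followed among ribosomal protein hosts at 273.7 (rank 185), with ranks of 210 in replicate 2 and 170 in replicate 3. RpL13A had 208.2 (rank 341), RpL22 197.7 (rank 387), RpL30 174.4 (rank 500), RpS29 167.4 (rank 545) and RpL28 165.3 (rank 560). Next came RpS16 with 163.2 (rank 574), RpL11 with 159.9 (rank 601) and RpS4 with 145.9 (rank 719). These encode proteins of the large subunit (RpL) and the small subunit (RpS), and at all 11 hosts from RpL14 to RpS4 the region ranked within the first 1000 in both replicates.

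Weaker peaks marked RpL4 at 121.3 (rank 1008), RpL17 at 117.5 (rank 1077), RpS12 at 116.4 (rank 1102) and sta, the fly homologue of the small subunit protein RPSA, at 103.3 (rank 1379). RpS5a, which holds 14 box H/ACA snoRNAs and no box C/D one, had 130.1 at rank 894. Its replicates differed in rank: it stood at 505 with a signal of 82.1 in replicate 2 and at 1903 with a signal of 47.1 in replicate 3. RpS5a has a closely related copy elsewhere in the genome, RpS5b, which was not assessed here. The 9 unbound ribosomal protein hosts ranged from RpL10Ab (65.8, rank 2998) and RpL3 (64.3, rank 3128), just under the threshold, to RpL36A, which had no pooled region.

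Among other coding hosts the strongest were Stt3A, the catalytic subunit of oligosaccharyltransferase, at 308.5 (rank 140), and CG1142, at 284.4 (rank 168). Msp300, a nesprin that links nuclei to the cytoskeleton, had 256.4 (rank 218), and lola, a BTB zinc finger factor of axon guidance, had 214.0 (rank 323). At Msp300 and lola the bound start was not the outermost one. CG12316 had 182.4 (rank 459) and Dys, the dystrophin gene, had 167.5 (rank 544). The Stt3A summit lay 411 bp upstream of its start and also within 500 bp of a start of bves, so which gene it belongs to cannot be told from the position.

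Further coding hosts were anchor with 131.9 (rank 871), dmt, a protector of sister chromatid cohesion, with 128.8 (rank 910) and drn with 112.96 (rank 1173). The elongation factor eEF1alpha1, which brings aminoacyl-tRNA to the ribosome, had 106.3 (rank 1300). The fly adducin gene, hts, had 96.3 (rank 1554). Weaker bound hosts ran down to mask at 66.97 (rank 2891) and included kra, a translation factor with 8 snoRNAs (87.6, rank 1812), RpS7, with 7 (70.6, rank 2623), and Hrb98DE, an hnRNP A1 relative with 7 (67.0, rank 2890).

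Fib encodes fibrillarin, the methyltransferase of box C/D particles, and is itself a host of 1 snoRNA. Its summit had a pooled signal of 127.2 at rank 922, a signal of 54.6 at rank 1128 in replicate 2 and 74.4 at rank 821 in replicate 3. The summit lay 44 bp upstream of Fib and also within 500 bp of a start of CG3085. Nop60B encodes dyskerin, the pseudouridine synthase of box H/ACA particles, hosts 7 snoRNAs and was not bound. Its pooled signal was 42.1 at rank 6341, and its replicates stood far apart, with rank 2419 in replicate 2 and 23589 in replicate 3. The pooled summit at Nop60B also lay within 500 bp of a start of mRpS17. The enzymes of the 2 classes thus differed in this list, with 1 gene each and no test.

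Of the noncoding hosts, Uhg4 and Uhg8 were bound. Uhg4, with 7 snoRNAs, had a signal of 164.2 at rank 568, 91 bp upstream of its start, and ranked 558 in each replicate; apart from its own snoRNA Psi28S-2949, no other gene started within 500 bp. Uhg8, with 3 snoRNAs, had 67.8 at rank 2824, 375 bp upstream and also near a start of CG5199. The 5 others had only pooled regions below the threshold, from Uhg1 at 39.97 (rank 6915) to Uhg3 at 22.4 (rank 20728).

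Some of the hosts with the most snoRNAs were not bound. Arpc2, a subunit of the Arp2/3 actin nucleator that carries 17 snoRNAs, had a pooled signal of 39.6 at rank 7033, with rank 8148 in replicate 2 and 9844 in replicate 3. Uhg1 carries 16 and ranked 6915, Uhg5 carries 11 and ranked 15372 with a signal of 26.3, and Sf3b3, a subunit of the SF3b splicing complex, carries 9 and ranked 15421 with a signal of 26.2. The gene dom, which encodes the ATPase of a histone exchange complex, carries 15 and came close to the threshold at 63.9 (rank 3168). Uhg5 also contains Or-CD4, the snoRNA with a thresholded summit past the end of the host.

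**Figure D3:**
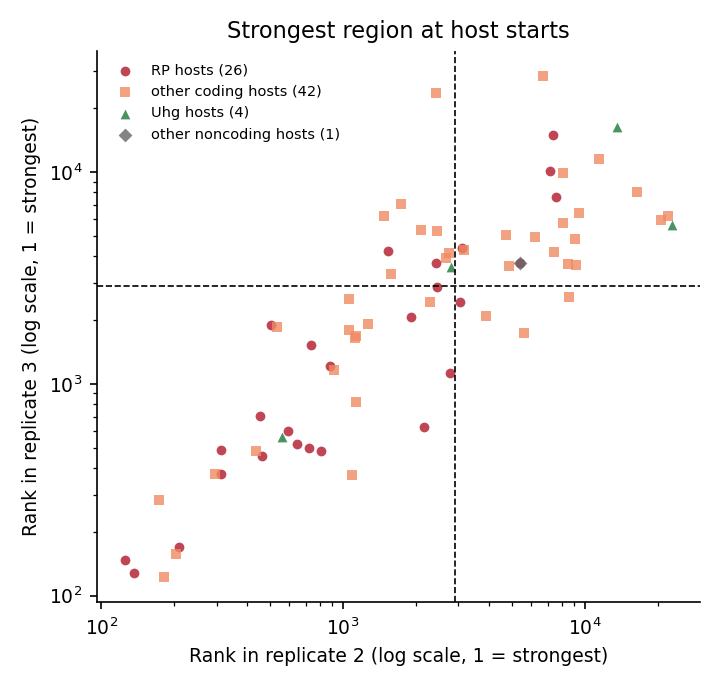
Rank of the strongest region at a host start in replicate 2 (x) and replicate 3 (y), both on log axes with 1 as the strongest, for the 73 hosts with a region in both lists; dashed lines mark rank 2892, the length of the thresholded list. The strongest hosts lie along the diagonal, such as RpL14 at 137 and 128, and the scatter widens toward weak ranks, with Nop60B at 2419 and 23589.

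All 43 bound hosts had a region at a start in both replicates. The thresholded list was kept by a measure of repeat between replicates, so the choice of bound hosts favoured this. At every bound host the peak had the same rank in the thresholded and pooled lists. A check of each peak for repeat was therefore not visible in these lists. Ranks of the bound hosts differed between replicates: 34 (79.1%, 64.8 to 88.6%) stood in the first 2892 of both. The same share over all thresholded peaks was not computed, so hosts cannot be set against the rest of the list in this. Of the 9 bound hosts in the first 2892 of only 1 replicate, 7 were there in replicate 2 and 2, skd and mask, in replicate 3. RpS7, for example, ranked 1528 in replicate 2 and 4215 in replicate 3, and Hrb98DE 1743 and 7018.

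The number of snoRNAs a host carries did not order the counts simply. Hosts with 2 or more snoRNAs were bound in 23 of 39 cases (59%, 43.4 to 72.9%), hosts with 1 in 20 of 56 (35.7%, 24.5 to 48.8%), and hosts with 5 or more in 7 of 15 (46.7%, 24.8 to 69.9%). Those 15 comprised 4 ribosomal protein hosts, all 4 bound, and 11 others, of which 3 were bound (27.3%). Counted by snoRNA, 115 of the 247 nested genes (46.6%, 40.4 to 52.8%) lay in a bound host; snoRNAs of 1 host share its start and are not independent. Ribosomal protein hosts held 61 in bound genes of 76, other coding hosts 44 of 126, Uhg genes 10 of 48 and other noncoding hosts 0 of 8, where a snoRNA with 2 hosts counts in each class. Leaving out replicate 2 moved the share of nested snoRNAs to 37.2% and leaving out replicate 3 moved it to 55.9%.

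By snoRNA class, 63 of 111 nested box H/ACA genes (56.8%, 47.5 to 65.6%) and 41 of 107 box C/D genes (38.3%, 29.7 to 47.8%) lay in a bound host. RpS5a alone supplied 14 of the 63, and without it the H/ACA share was 49 of 97 (50.5%, 40.7 to 60.3%). Counted by host, 16 of the 30 hosts with H/ACA names and no C/D name (53.3%, 36.1 to 69.8%) and 20 of the 39 with C/D names and no H/ACA name (51.3%, 36.2 to 66.1%) were bound. The shares of the 2 classes lay closer by host than by snoRNA.

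**Figure D4:**
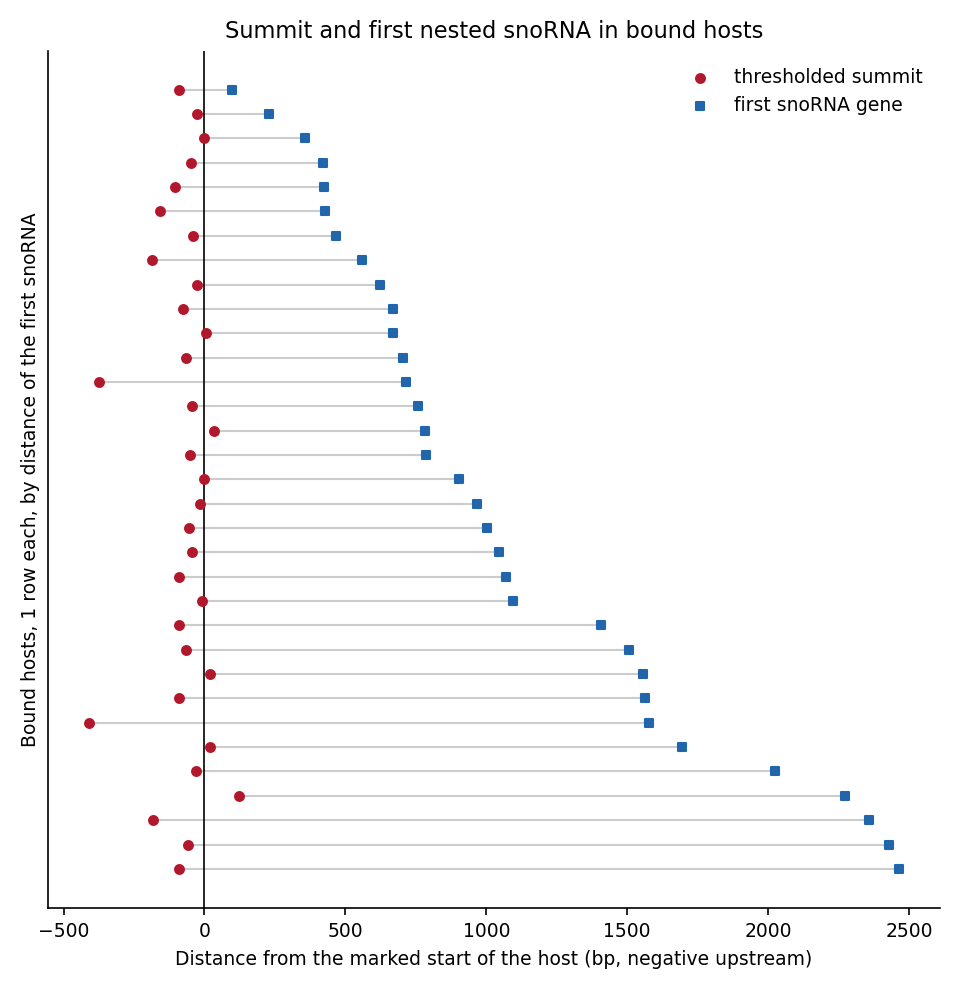
Position, 1 row per host, of the thresholded summit (red) and of the first nested snoRNA gene (blue) relative to the start that the summit marked, in bp with negative values upstream, for the 33 bound hosts whose first snoRNA lies within 3000 bp of that start; 10 others lie beyond. Summits lie mostly just upstream of the start and the first snoRNA follows 99 to 2465 bp downstream, 190 to 2554 bp past the summit. Bound hosts were chosen for a summit within 500 bp of a start, which limits where the red points can lie.

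Bound hosts were chosen for a summit within 500 bp of a start. Nearness to the start, and for most hosts distance from the first snoRNA, was therefore largely fixed in advance. Within that limit the summits lay mostly upstream. Upstream summits made up 37 of 43 (86%), against 85.1% of all bound protein-coding genes, and the median offset was 64 bp upstream, against 114 bp. Within the 100 bp just upstream lay 23 of 43 summits (53.5%, 38.9 to 67.5%), against 598 of 1981 (30.2%) of all bound protein-coding genes. The ribosomal protein hosts had 15 of 20 (75%, 53.1 to 88.8%) and a median of 42 bp upstream, while the other coding hosts had 7 of 21 (33.3%, 17.2 to 54.6%) and a median of 171 bp. Bound ribosomal protein genes that host no snoRNA had a median of 26 bp upstream. From its nearest spanning start, the first snoRNA lay a median of 554 bp in all 29 ribosomal protein hosts and 1521 bp in all 55 other coding hosts. The start of another gene, snoRNA genes aside, lay within 500 bp of the summit at 21 of the 43 bound hosts, 9 of 20 for ribosomal protein hosts and 11 of 21 for other coding hosts. This share was not computed for all bound protein-coding genes, so whether it is particular to hosts was not tested. The closest host inside the 500 bp limit was skd, at 448 bp upstream, and the closest outside was tou, at 661 bp.

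Motifs were searched on both strands, as letters only, in the 101 bp around each summit and in 250 bp before to 50 bp after each outermost start. The DRE, TATCGATA, lay in 3 of 43 host summit windows (6.98%), those of RpL28, RpS12 and RpS29 printed above, against 2.7% of all 2892 thresholded summits. CGATA, which the DRE contains, lay in 19 of 43 (44.2%), against 18.8% of all summits, and 11 of the 19 were ribosomal protein hosts. The core of the promoter element Ohler 1, GGTCACACT, lay in the windows of RpL27A and sta, 4.65%, against 0.83%. None of the 3 was in the windows of RpL14 and RpL23A, the hosts with the strongest peaks. Host summits were chosen to lie within 500 bp of a start, whereas the set of all thresholded summits was not limited by position. Motif shares at summits near the starts of other genes were not computed. Whether the higher shares are particular to hosts was therefore not tested.

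In promoters the DRE lay in 19 of 95 hosts (20%) and 3 of 269 snoRNA genes (1.12%), against 9.36% of 13945 protein-coding genes. CGATA lay in 62.1% of hosts and 33.8% of snoRNA genes, against 47.4%, and the core of Ohler 1 in 8.42% of hosts, against 6.05%. The DRE lay in 7 of 43 bound hosts (16.3%) and 12 of 52 unbound hosts (23.1%). A match of letters is a description and not a site.

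The proteins that make up and assemble snoRNA particles were examined as a list of 24 genes. A thresholded summit lay at 7 of them (29.2%, 14.9 to 49.2%), against 14.2% of protein-coding genes, a value just below the interval. Of the 8 core proteins 2 were bound, Fib and NHP2, a core protein of box H/ACA particles, at 89.2 (rank 1758); the remaining 6 core genes were Nop56, nop5, hoip, Nop60B, Nop10 and Gar1. Of the 16 assembly and processing genes 5 were bound. Dis3, an exosome exonuclease, had 354.4 (rank 109), a stronger peak than any host, with rank 89 in replicate 2 and 139 in replicate 3, and it shares this summit with Rrp5, a ribosomal RNA processing gene. Rrp6, the nuclear exosome exonuclease, known in yeast to trim snoRNA ends, had 90.5 (rank 1707). The pair of AAA+ ATPases of the R2TP assembly complex, rept and pont, had 83.5 (rank 1977) and 80.3 (rank 2127), and Nopp140, a nucleolar chaperone of the particles, had 70.8 (rank 2613). All 5 share their summit with a start of another gene, which was not counted over all bound protein-coding genes. In the pooled list 6 of 8 core genes and 12 of 16 assembly genes were marked, against 53.2% of protein-coding genes.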

How the data were processed

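ChIP-seq peak lists of 2 biological replicates in 1 group were used as deposited. Per the deposited library listing, the authors called regions on dm6 with a control alignment, once per replicate and once for both pooled, and kept a final list by the irreproducible discovery rate (IDR). The sources used here do not give aligner, caller or filters. The deposited signal of each region is the authors' strength value on an unstated scale, and the deposited −log10 q-value was not used. The lists hold no read counts, so library depth is unknown. Intervals cover the counting of genes only. They treat genes as independent, although neighbouring snoRNA genes can share a summit, so intervals over snoRNA genes may be too narrow. Lists on another build were not used.

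Genes came from Ensembl release 115 (BDGP release 6); all regions lay within the chromosome lengths, and 269 of 269 snoRNA genes had the same coordinates in RefSeq. Summits within 500 bp of any transcript start marked a gene, and counts carry Wilson 95% intervals (SciPy 1.17.1), or, for a count of 0, a limit of 3 counts over the number of genes. The lookup was tested on simulated positions. No test was run, since 1 group with no control library among the samples leaves no contrast. Of 25 listed snoRNA particle genes 24 were matched. Members and lists were chosen with earlier results of these data known. Named genes were all snoRNA genes and snoRNA particle genes with a thresholded summit, the 30 bound hosts with the strongest peaks, the 5 unbound hosts with the most snoRNAs and the 5 other snoRNA genes with the strongest pooled region; others, such as U3, weaker bound hosts and Nop60B, were named after their values were seen. A gene that the rule names is not reported here. Alternatives were windows of 250 and 1000 bp, the stronger 1446 peaks, 1 replicate's 2892 strongest regions, and other definitions of host and start.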

Additional observations from a re-analysis of the deposited data

How the results depend on the processing

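The share of snoRNA genes with a thresholded summit at their own start was 0.372% with a window of 250 bp and 13.8% with 1000 bp, against the 2.6% reported; protein-coding genes stood at 11.5% and 16.5% in those windows. With the stronger 1446 peaks the bound hosts made up 30.5% and nested snoRNAs in bound hosts 30.8%, against 7.6% of protein-coding genes. Leaving out each replicate gave 2.6 to 3.35% for own starts, 40 to 47.4% for hosts and 37.2 to 55.9% for nested snoRNAs, against 13.7 to 14.3% of protein-coding genes. Without ribosomal protein hosts, an alternative chosen after seeing the data, hosts stood at 34.8% and nested snoRNAs at 30.5%. The other 17 values stayed within the 95% interval of the reported share: hosts, for example, stood at 38.9% with the outermost start, 41.3% with hosts on either strand and 48.8% with protein-coding hosts only. In every alternative run, hosts lay above the protein-coding share of the same setting where one was computed. The cause of the differences was not tested. No paired analysis was possible because the replicates form 1 group with no second group to pair. Library depth is unknown, so weak regions cannot be told from regions missed at low depth.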
